A study of Mus musculus with 4 samples.

Results

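Poly(A)-selected RNA of day 6 mouse retinal organoids was examined for expression of the pluripotency network, the transcription factor genes that hold embryonic stem cells undifferentiated. The genes were chosen by name from the deposited gene table: Pou5f1, Nanog, Zfp42, Esrrb, Klf2, Klf4, Klf5, Tfcp2l1, Dppa4 and Utf1. All 10 were found, among 55426 rows in the table. Retinal organoids are stem cell aggregates grown towards retinal progenitors. All 4 libraries came from a Mettl3 KO line that carries the Rx:GFP reporter and a Dox-inducible HA-METTL3, and all cultures were differentiated in the same medium with AGN. Of these, 2 libraries were from untreated organoids and 2 from organoids given doxycycline (Dox, 2 µg/ml for 6 days). The titles read EV and EV+Dox, an abbreviation that the labels do not explain. The labels do not say whether the line is a single clone or whether the replicates were separate cultures, so p-values measure only the spread between these libraries.

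POU5F1 (also called OCT4) and NANOG, together with SOX2, sit at the core of the network and bind their own and each other's genes. Around them ESRRB, TFCP2L1 and the KLF factors maintain the naive state under LIF and STAT3 signalling, and most of these genes are silenced as cells turn into neuroectoderm. METTL3 is the catalytic subunit of the enzyme that writes N6-methyladenosine (m6A) on RNA. Transcripts of several pluripotency factors are known to carry this mark in mouse embryonic stem cells, where cells without METTL3 leave the naive state poorly.

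The complex methylates adenosines within a short consensus, of which GGACT is a common form (written as DNA). The letters were searched on the sense strand of 1 GENCODE M21 transcript per gene. They occurred in 9 of the 10 transcripts and not in that of Dppa4, against 91.9% of 11652 coding transcripts of tested genes. Klf4 had 1.65 per kb, Nanog 1.81, Tfcp2l1 1.73, Esrrb and Utf1 1.63 each and Zfp42 1.09, against a median of 1.05 per kb. Lower values were 0.895 for Klf5, 0.734 for Pou5f1 and 0.541 for Klf2. The occurrence nearest the stop codon is shown for the genes on which the results below turn, with GGACT in capitals. m6A itself was not measured here, and a match is only a description of the letters.
Klf4: gaacatgcccGGACTtacaaaatgc
Nanog: acttcggggaGGACTttctgcagcc
Utf1: gcatccttggGGACTtgcgccaata
Pou5f1: acctcaggttGGACTgggcctagtc
Esrrb: aggcgctgcaGGACTatgagctgag

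These windows lie at chr4:55527792-55527816 on the minus strand for Klf4, and on the plus strand at chr6:122713386-122713410 for Nanog, chr7:139944965-139944989 for Utf1, chr17:35506315-35506339 for Pou5f1 and chr12:86518878-86518902 for Esrrb (GRCm38, the build named mm10 in the submitters' processing notes). The Klf4 window is in the 3' UTR and its GGACT ends 323 bases past the stop codon. The other windows are coding. The motif ends 11 bases before the end of the stop codon in Utf1, 155 in Nanog, 173 in Esrrb and 829 in Pou5f1.

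POU factors bind an octamer whose core TTTGCAT was searched on both strands of the RefSeq promoter windows (GRCm38.p6, 250 bases before to 50 after each start). Of the 8 members with an entry in that table, 2 held it, Nanog and Zfp42. These 8 members have 11 windows. Of all 32851 windows of that length 4.63% held it, a share per window and not per gene. Both promoters are shown, with the octamer core in capitals, because these are the members in which the letters of POU5F1 binding were found.
Nanog: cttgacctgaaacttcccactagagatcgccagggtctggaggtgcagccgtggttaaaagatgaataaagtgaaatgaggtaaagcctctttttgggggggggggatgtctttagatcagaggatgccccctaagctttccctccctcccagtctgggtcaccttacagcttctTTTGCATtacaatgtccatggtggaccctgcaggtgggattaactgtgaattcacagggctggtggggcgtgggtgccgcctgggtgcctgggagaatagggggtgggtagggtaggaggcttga
Zfp42: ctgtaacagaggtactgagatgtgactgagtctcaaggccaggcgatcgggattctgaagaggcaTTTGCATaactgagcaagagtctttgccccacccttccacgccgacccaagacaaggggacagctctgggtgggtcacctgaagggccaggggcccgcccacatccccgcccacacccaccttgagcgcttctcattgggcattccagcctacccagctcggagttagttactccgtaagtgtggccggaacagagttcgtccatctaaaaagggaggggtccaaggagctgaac

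The Nanog window is chr6:122707239-122707538 on the plus strand and that of Zfp42 is chr8:43306960-43307259 on the minus strand. The octamer core begins at position -75 from the start of Nanog in this window and -185 from that of Zfp42. Another, overlapping Nanog window holds the same core at -151 from its own start. The sequences say nothing about whether a factor was bound in these organoids.

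Values are FPKM, fragments scaled to transcript length and library depth, as deposited. Read from the steps of the low values, the libraries held 31700000 to 34300000 fragments, and the FPKM sums were 793308 to 866239. The line's targeted gene, Mettl3, was listed at 40.33 and 37.98 FPKM untreated and at 45.2 and 46.37 FPKM with Dox, and did not pass the test (log2 fold change 0.22, adjusted p = 0.122 in limma). Gene-level values do not separate the inducible copy from the endogenous locus. The retinal label was met with Dox. Rax, which specifies the eye field, was at 201.14 and 227.98 FPKM with Dox against 1.12 and 0.82 FPKM untreated, and Six6, another eye-field gene, at 79.22 and 92.44 against 0.01 and 0.01 FPKM. Six3, Lhx2 and Pax2 also rose, with log2 fold changes of 3.52, 3.50 and 4.43, and of the 10 retinal progenitor markers 8 rose and 1 fell, a share of 90% against 9.31% of all tested genes. The gene that fell, Otx2, lost its call in 7 of 14 other fits. In untreated organoids Six6 was thus near 0 and Rax low, while Pax6, a broader neural and eye gene, was at 118.86 and 127.76 FPKM. Exons of Mettl3, Rax, Six3 and Six6 overlap opposite-strand genes.

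All 10 pluripotency genes were detected in every library, at low levels. No undifferentiated or earlier sample is among the 4 libraries, so a fall from a starting level was not measured. Their summed level was 33.0 and 32.3 FPKM in the untreated libraries and 37.3 and 27.6 FPKM with Dox. The untreated libraries lay between the 2 Dox libraries. Pou5f1 was the highest, with a mean over the 4 libraries above that of 40.9% of the 13931 tested genes. Zfp42 followed at 30.7%, Utf1 at 22.6%, Nanog at 17.9%, Klf2 at 15.8%, Dppa4 at 8% and Esrrb and Klf4 at 6.63% and 5.5%. The median tested gene had a mean of 14.4 FPKM, above every member. In these bulk samples fewer cells of a type and less RNA per cell cannot be told apart.

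**Figure D1:**
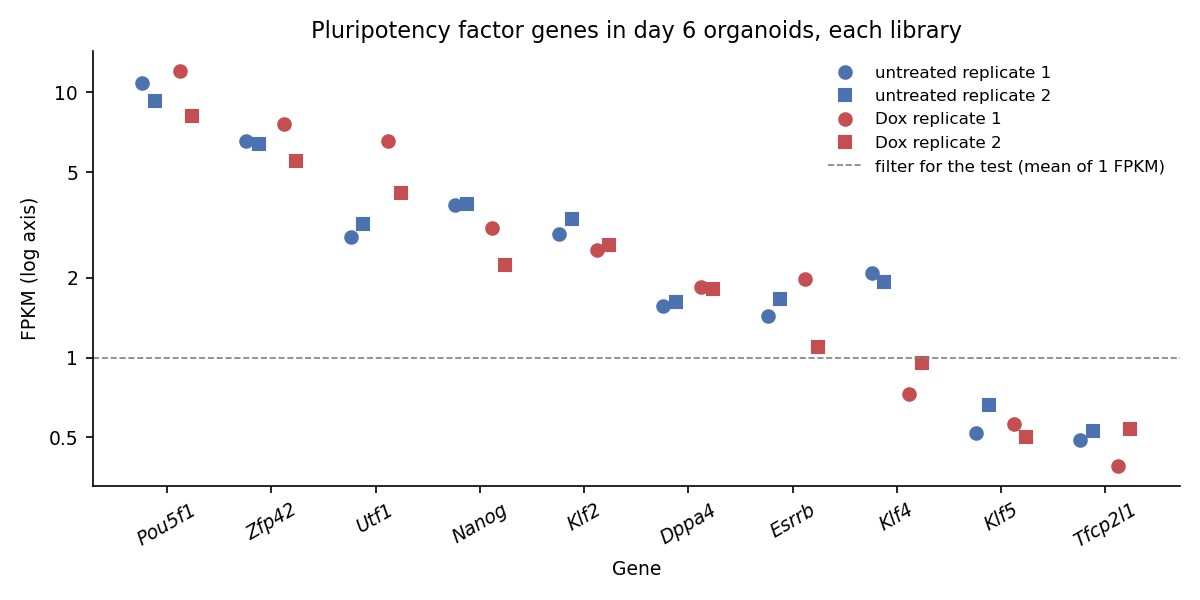
FPKM (log axis) of the 10 pluripotency genes in each library, ordered by mean; blue is untreated, red is Dox, circles are replicate 1 and squares replicate 2. Pou5f1 is highest at 8.14 to 12.08 FPKM, Klf5 and Tfcp2l1 lie under the dashed line at 1 FPKM, and the red points of Klf4 lie below both blue ones.

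The comparison asks whether these levels differed with Dox at day 6. Differences were tested with limma on log2(FPKM + 1) across the 13931 genes whose mean reached 1 FPKM, and p-values were adjusted by Benjamini-Hochberg over all of them. Of the 10 members 8 met that minimum. Klf4 was the single member past an adjusted p of 0.05, and it fell. It met the minimum only through its untreated libraries, with means of 2.0 FPKM untreated and 0.84 FPKM with Dox. No member rose past the threshold (0 of 8 in limma). At an unadjusted p below 0.05 there were 1 higher and 2 lower. The background was 9.31% of all tested genes called, 4.44% higher and 4.87% lower, and 1 call among 8 genes is near that background. The median log2 fold change of the tested members was -0.02, against -0.0042 over all tested genes. Untreated and Dox values did not overlap for 5 of the 8, which held for 53.4% of all tested genes. With 2 libraries against 2, an exact permutation test of a single gene cannot give a two-sided p below 0.333.

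**Figure D2:**
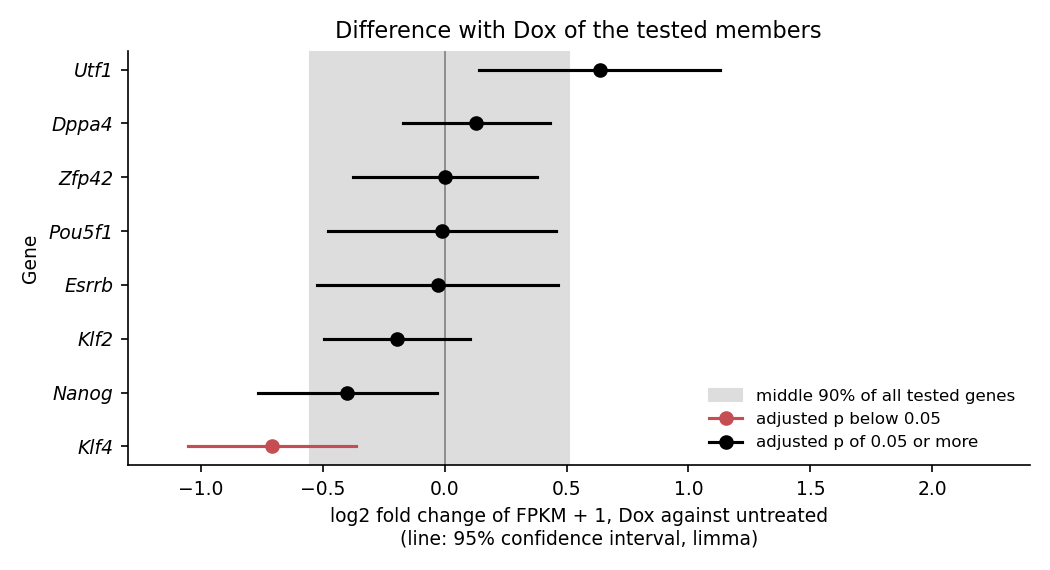
Log2 fold change of FPKM + 1 with Dox (x axis) for each tested member (y axis), with its 95% confidence interval from limma; the grey band holds the middle 90% of all tested genes, from -0.55 to 0.51. Klf4, in red, is the gene past the adjusted threshold, and the points of Klf4 and Utf1 lie outside the band.

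Pou5f1 (ENSMUSG00000024406, chr17:35506018-35510772, plus strand), the POU factor at the centre of the network, was at 10.84 and 9.24 FPKM untreated and at 12.08 and 8.14 FPKM with Dox. The highest and the lowest library were both Dox libraries, and the untreated values lay between them. The means were 10.04 ± 1.13 and 10.11 ± 2.79 FPKM (SD, n = 2 each), with a log2 fold change of -0.01 (95% interval -0.48 to 0.46, adjusted p = 0.98 in limma). Taking the length of its main transcript, these values correspond to about 430 fragments in Dox replicate 1 (95% Poisson interval 390 to 473) and about 299 in Dox replicate 2 (266 to 335). The Dox replicates thus differed by more than counting error, which is all that such intervals cover. Exons of Pou5f1 overlap those of the antisense gene Gm19553, and whether counting used strand is not given in the sources used here.

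Nanog (ENSMUSG00000012396, chr6:122707489-122714633, plus strand), the homeobox partner of POU5F1, was at 3.77 and 3.79 FPKM untreated and at 3.07 and 2.23 FPKM with Dox. Both Dox libraries lay below both untreated libraries. The means were 3.78 ± 0.0141 and 2.65 ± 0.594 FPKM (SD, n = 2 each), with a log2 fold change of -0.40 (SE 0.147, 95% interval -0.77 to -0.03). The unadjusted p was 0.0383 and the adjusted p 0.18 in limma, so the difference did not pass. The pseudogene Nanog-ps1, which resembles Nanog in sequence, was listed at 0.78 and 1.42 FPKM untreated and at 0 in both Dox libraries. How reads that fit both were assigned is not given in the sources used here, and the values of Nanog carry that uncertainty.

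Among the naive factors, Zfp42 (Rex1; ENSMUSG00000051176, chr8:43295063-43306980, minus strand), a zinc finger gene long used as a marker of undifferentiated cells, was the most abundant. It was at 6.54 and 6.37 FPKM untreated and at 7.57 and 5.5 FPKM with Dox, so that the untreated pair again fell between the Dox libraries. Its log2 fold change was 0.0018 (95% interval -0.38 to 0.38, adjusted p = 0.995 in limma). Its pseudogene Zfp42-ps1 was listed at 0.97, 1.03, 0.92 and 0.39 FPKM in untreated replicates 1 and 2 and Dox replicates 1 and 2.

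Esrrb (ENSMUSG00000021255, chr12:86361117-86521628, plus strand), an orphan nuclear receptor of the naive network, was at 1.44 and 1.66 FPKM untreated and at 1.97 and 1.1 FPKM with Dox. As for Pou5f1 and Zfp42, the Dox libraries held both extremes. Its log2 fold change was -0.03 (95% interval -0.52 to 0.47, adjusted p = 0.947 in limma). Tfcp2l1 (ENSMUSG00000026380, chr1:118627945-118685168, plus strand), a CP2-family factor downstream of LIF, was at 0.49 and 0.53 FPKM untreated and at 0.39 and 0.54 FPKM with Dox. The groups overlapped, and the gene was under the minimum for the test. Without a minimum its log2 fold change was -0.05 (adjusted p = 0.79 in limma). About 112 to 164 fragments per library stood behind these values, since its transcript is long.

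The Klf genes encode zinc finger factors that share their targets in embryonic stem cells and are also used outside them, Klf4 and Klf5 in epithelia and Klf2 in endothelium. Klf4 (ENSMUSG00000003032, chr4:55527143-55532466, minus strand) was at 2.08 and 1.92 FPKM untreated and at 0.73 and 0.95 FPKM with Dox. Both Dox libraries were well below both untreated ones, by more than the distance between replicates. The mean fell from 2.0 ± 0.113 to 0.84 ± 0.156 FPKM (SD, n = 2 each), 2.38-fold, with a log2 fold change of -0.71 on the log2(FPKM + 1) scale (SE 0.138, 95% interval -1.05 to -0.36, adjusted p = 0.0348 in limma). About 184 and 185 fragments stood behind the untreated values and 65 and 87 behind the Dox values. The call was lost in each of the 4 fits that left out a library, with adjusted p from 0.088 to 0.127 and a log2 fold change of -0.79 to -0.62, and also without the minimum on level (adjusted p = 0.101).

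Klf2 (ENSMUSG00000055148, chr8:72319033-72321656, plus strand) was at 2.91 and 3.33 FPKM untreated and at 2.54 and 2.65 FPKM with Dox. Its groups did not overlap either, but the gap was narrower than the distance between the untreated libraries. Its log2 fold change was -0.19 (95% interval -0.49 to 0.10, adjusted p = 0.392 in limma). Klf5 (ENSMUSG00000005148, chr14:99298691-99315036, plus strand) was at 0.52 and 0.66 FPKM untreated and at 0.56 and 0.5 FPKM with Dox. The groups overlapped, about 51 to 71 fragments stood behind each value, and the gene was under the minimum. Without a minimum its log2 fold change was -0.05 (adjusted p = 0.744 in limma). Whether Klf4 differed in its response from Klf2 and Klf5, neither of which passed, was not tested.

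Utf1 and Dppa4 encode chromatin-associated proteins of undifferentiated cells. Utf1 (ENSMUSG00000047751, chr7:139943789-139945112, plus strand), which acts at genes marked for repression and activation at once, was at 2.85 and 3.2 FPKM untreated and at 6.55 and 4.17 FPKM with Dox. The Dox values were both above the untreated ones, but they stood further from each other than the lower of them from the untreated pair. The means were 3.02 ± 0.247 and 5.36 ± 1.68 FPKM (SD, n = 2 each), with a log2 fold change of 0.64 (SE 0.197, 95% interval 0.14 to 1.13). The unadjusted p was 0.0205 and the adjusted p 0.124 in limma, so the difference did not pass. The log2 fold change was 0.91 without Dox replicate 2 and 0.36 without Dox replicate 1. Dppa4 (ENSMUSG00000058550, chr16:48283733-48294237, plus strand), the partner of DPPA2 at developmental promoters, was at 1.56 and 1.62 FPKM untreated and at 1.85 and 1.82 FPKM with Dox. Its groups did not overlap, by a small margin, with a log2 fold change of 0.13 (95% interval -0.17 to 0.43, adjusted p = 0.577 in limma).

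For 7 of the 10 members the Dox replicates differed by more than the untreated ones did; the exceptions were Klf2, Klf5 and Dppa4. Dox replicate 1 was above Dox replicate 2 for 7 of the 10 members. The difference in log2(FPKM + 1) was 0.55 for Utf1, 0.52 for Pou5f1, 0.50 for Esrrb, 0.40 for Zfp42 and 0.33 for Nanog. Klf4 (-0.17), Klf2 (-0.04) and Tfcp2l1 (-0.15) were higher in Dox replicate 2. Between the untreated replicates Pou5f1 had the largest difference, of 0.21. Over the 8 tested members the median of Dox replicate 1 minus Dox replicate 2 was 0.37, against -0.025 over all tested genes and -0.048 over the 5999 tested genes with means of 1 to 11 FPKM. Among all tested genes 44% were higher in Dox replicate 1. The median untreated difference was -0.020 for the members and 0.0062 for all tested genes.

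**Figure D3:**
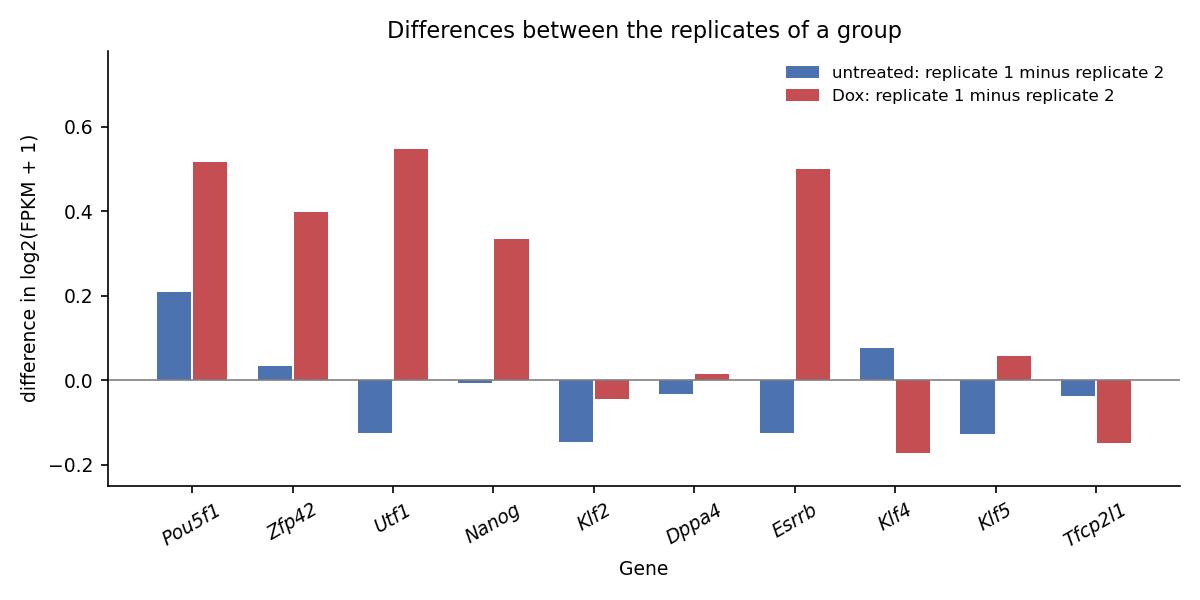
Difference in log2(FPKM + 1) between replicate 1 and replicate 2 (y axis) for each of the 10 genes (x axis), in blue for the untreated and in red for the Dox libraries. The red bars of Pou5f1, Zfp42, Utf1, Nanog and Esrrb reach 0.33 to 0.55, while the blue bars stay between -0.15 and 0.21.

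The retinal progenitor markers went the other way, as did some other lists. Dox replicate 1 was higher for 2 of 14 tested formative and primed epiblast genes and 2 of 12 LIF and STAT3 genes. The same held for 3 of 11 other Klf genes. The further pluripotency network genes went with the members, 15 of 25 tested being higher in Dox replicate 1, with a median of 0.17. Of the 6 tested germ cell markers 4 were higher in Dox replicate 1, with a median of 0.087. In 9 of the 10 retinal markers the level was higher in Dox replicate 2, with a median difference of -0.22, and their summed level was 1170 FPKM in Dox replicate 1 and 1340 FPKM in Dox replicate 2, against 482 and 452 FPKM untreated. Of the 9 tested surface epithelium markers 8 were higher in Dox replicate 1, with a median of 0.18, and all 9 were higher in untreated replicate 1, with a median of 0.12. These levels moved with the members between the Dox libraries, and their part in the differences was not tested. Dox replicate 1 and 2 each decided values here: the log2 fold change of Pou5f1 was 0.25 without Dox replicate 2 and -0.27 without Dox replicate 1.

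Each member was also set against Pou5f1 in its own library, as a description chosen after the values were seen. Zfp42 was at 60.3% and 68.9% of Pou5f1 untreated and at 62.7% and 67.6% with Dox, so the 2 genes stood in much the same ratio throughout. Nanog was at 34.8% and 41% untreated and at 25.4% and 27.4% with Dox. Klf4 was at 19.2% and 20.8% untreated and at 6.04% and 11.7% with Dox. Nanog and Klf4 were thus lower relative to Pou5f1 in both Dox libraries. Utf1 was at 26.3% and 34.6% untreated and at 54.2% and 51.2% with Dox, higher in both. For Esrrb (13.3% to 18%), Klf2 (21% to 36%), Dppa4 (14.4% to 22.4%), Klf5 (4.64% to 7.14%) and Tfcp2l1 (3.23% to 6.63%) the groups overlapped on this scale. No test was made on these ratios, and the share of all tested genes whose groups separate on them was not computed. Nanog, Klf4 and Utf1 were also separated on FPKM, as were 53.4% of all tested genes. Pou5f1 itself was 1.48-fold higher in Dox replicate 1 than in Dox replicate 2.

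Of 36 further genes of the pluripotency network, 25 were tested, of which 6 rose and 1 fell past the adjusted threshold. The share called was 28%, against 9.31% of all tested genes, and the median log2 fold change was -0.043. That share includes Tbx3, which met the minimum only through Dox. By an unadjusted p below 0.05, 6 were higher and 5 lower. Among the lower were Dppa3 (log2 fold change -0.69, adjusted p = 0.0734 in limma) and Tdh (-0.74, adjusted p = 0.0892). These 2 did not pass and are named after their values were seen. The genes that rose include several that are also used in neural or eye development. Tbx3, which acts in naive cells and in the dorsal optic vesicle, rose from 0.205 ± 0.0212 to 35.0 ± 8.22 FPKM (SD, n = 2 each, log2 fold change 4.88, adjusted p = 1.16e-04 in limma). Sall1 (log2 fold change 1.11) and the RNA-binding factor gene Lin28a (0.71) also rose, with adjusted p-values of 0.00473 and 0.00522 in limma. Sall1 lost its call without the minimum on level (adjusted p = 0.0588 in limma). Lin28a lost its call without Dox replicate 2, with a log2 fold change of 0.63 to 0.80 without a library. Sox2, the partner of POU5F1 and also a neural progenitor gene, was at 109.56 and 97.34 FPKM untreated and at 139.25 and 163.64 FPKM with Dox.

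Sox2 was thus above every member in all libraries, and it rose by 0.54 on the log2 scale (adjusted p = 0.0347 in limma). It was higher in Dox replicate 2, unlike Pou5f1. Dnmt3l, for a cofactor of DNA methylation, also rose (log2 fold change 0.92) and is named after its values were seen. The gene that fell was Jam2, for a junctional adhesion molecule, from 10.8 ± 0.00707 to 3.18 ± 0.346 FPKM (SD, n = 2 each, log2 fold change -1.49, adjusted p = 0.001 in limma). Trim28, a corepressor gene and the most abundant of the list at 243.36 to 299.27 FPKM, did not pass (adjusted p = 0.324). Without the minimum on level 3 of the list were called higher in place of 6, and Sox2 lost its call in 8 of 14 other fits. Exons of Tbx3, Lin28a and Dnmt3l overlap antisense or opposite-strand genes.

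**Figure D4:**
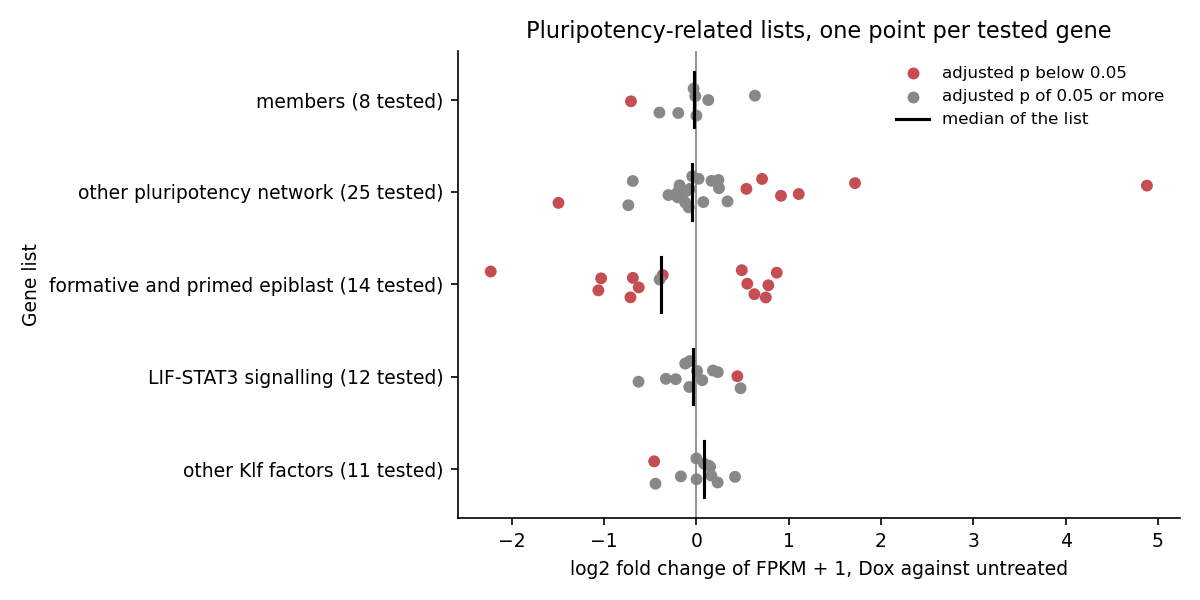
Log2 fold change of FPKM + 1 with Dox (x axis) for every tested gene of the members and of 4 related lists (y axis); red points passed an adjusted p of 0.05 and black bars are list medians. The members lie between -0.71 and 0.64, while the formative and primed epiblast genes split into 6 red points on the right and 7 on the left.

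The genes of the formative and primed epiblast, the state that cells enter after the naive state, were examined next. Of 17 genes 14 were tested, and 6 rose and 7 fell, a share of 92.9% against 9.31% of all tested genes. The median log2 fold change was -0.38. Foxd3, a forkhead gene of epiblast and neural crest, fell from 4.83 ± 0.24 to 0.26 ± 0.269 FPKM (SD, n = 2 each, log2 fold change -2.23, adjusted p = 0.00162 in limma). Pou3f1 (Oct6), a POU gene of the primed state and of neural cells, had a log2 fold change of -1.06 and the Wnt effector gene Lef1 one of -1.03. Sox3 (-0.69) and Otx2 (-0.36), both also neural genes, fell as well. The call of Otx2 was lost with the replicate block (adjusted p = 0.105 in limma) and without each library in turn (0.0804 to 0.195), and those of Pou3f1 and Sox3 were lost without either Dox replicate (0.0567 to 0.0796). The calls of Pou3f1 and Lef1 were also lost without the minimum on level (adjusted p = 0.0635 and 0.0524 in limma). Etv5, an FGF-responsive ETS factor gene, rose by 0.87 on the same scale. Its call was lost without Dox replicate 2, and its log2 fold change was 0.86 to 0.88 without a library. Cdh2 was at 133.06 and 120.05 FPKM untreated and at 90.72 and 101.04 FPKM with Dox and did not pass (adjusted p = 0.0529).

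Fgf5, the usual marker of the primed epiblast, was at 0.11 to 0.45 FPKM in all 4 libraries and was not tested. It is named after its values were seen. Leaving out a library changed these counts: 0 of the list were called higher without Dox replicate 2, 3 without Dox replicate 1 and 2 without either untreated replicate. The count of lower calls was 4 without either Dox replicate. Without the minimum on level it was 1 higher and 4 lower. Exons of Foxd3, Pou3f1, Lef1 and Otx2 overlap those of other genes.

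The LIF and STAT3 pathway, which supports the naive state, had 12 tested genes of 14. Of these 1 rose and 0 fell in limma, a share of 8.33% against 9.31% of all tested genes, with a median log2 fold change of -0.03. At an unadjusted p below 0.05, 2 were higher and 2 lower. Pim3, a kinase gene induced by STAT3, was at 15.36 and 13.34 FPKM untreated and at 19.48 and 20.23 FPKM with Dox (log2 fold change 0.45, adjusted p = 0.0448). Its call was lost in 8 of 14 other fits. The phosphatase gene Ptpn11 (log2 fold change -0.12, adjusted p = 0.43) and the kinase gene Jak1 (0.0090, adjusted p = 0.963) did not pass.

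Of the 14 Klf genes that are not members, 11 were tested, and 0 rose and 1 fell in limma, against 4.44% and 4.87% of all tested genes. At an unadjusted p below 0.05, 1 was higher and 2 were lower. The gene that fell was Klf10, a TGF-beta-induced factor gene, from 15.3 ± 0.693 to 10.9 ± 0.41 FPKM (SD, n = 2 each, log2 fold change -0.46, adjusted p = 0.0295), and its call was lost in 7 of 14 other fits. Klf3 was at 14.94 and 15.36 FPKM untreated and at 17.93 and 23.66 FPKM with Dox (adjusted p = 0.136), and Klf11 differed by less than its replicates (log2 fold change 0.0032, adjusted p = 0.988). Exons of Klf3 overlap an opposite-strand gene. All 3 were more abundant than Klf2, Klf4 and Klf5 in every library.

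Markers of other cells that use some of these genes were examined beside them. Surface epithelium, where Klf4 and Klf5 are also active, had 9 of 16 markers tested and 0 called in limma, while 0 were higher and 1 was lower by unadjusted p alone. Their summed level was 76.7 to 88.3 FPKM untreated and 78.5 to 89.9 FPKM with Dox. Krt8, the highest, was at 23.03 to 25.31 FPKM in all libraries, while Krt14 was listed at 0 in all 4 and Krt5 and Trp63 did not exceed 0.02 FPKM. Of the endothelial markers, where Klf2 and Klf4 are also used, 1 of 10 was tested. Kdr, a VEGF receptor gene that retinal progenitors also express, rose from 0.235 ± 0.0212 to 15.8 ± 2.63 FPKM (SD, n = 2 each, log2 fold change 3.75, adjusted p = 1.38e-04 in limma). The summed endothelial level was 1.1 to 1.16 FPKM untreated and 15.6 to 20 FPKM with Dox, where Kdr made up most of it. Cdh5, a defining gene, was at 0.05 and 0.01 FPKM untreated and at 0.43 and 0.61 FPKM with Dox, and was not tested. The part of either cell type in the values of the Klf genes was not tested.

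Germ cells retain several pluripotency genes. Of 12 germ cell markers 6 were tested, and 4 rose and 1 fell in limma, a share of 83.3% against 9.31% of all tested genes. The 4 higher calls were 1 to 2 in fits that left out a library, 1 without the minimum on level and 2 with a minimum of 5 FPKM. Tfap2c, also a trophoblast and epithelial gene, fell from 12.1 ± 0.0354 to 2.9 ± 0.403 FPKM (SD, n = 2 each, log2 fold change -1.76, adjusted p = 7.21e-04). Rhox9 (log2 fold change 1.57), Rhox5 (1.14) and Dnd1 (0.87) rose. Rhox5 lost its call without the minimum and without untreated replicate 1, untreated replicate 2 or Dox replicate 1 (adjusted p = 0.0645 to 0.161 in limma). Dnd1 lost its call without the minimum and without untreated replicate 1 or either Dox replicate (0.0644 to 0.0848). The summed level was 25.3 to 25.6 FPKM untreated and 29.7 to 33.1 FPKM with Dox. The germ cell genes Dazl, Ddx4 and Prdm1 did not exceed 0.55 FPKM in any library. Nanos3, of the same list, was at 1.16 and 1.33 FPKM untreated and at 1.03 and 0.87 FPKM with Dox. It did not pass (adjusted p = 0.443 in limma). Of 14 primitive endoderm and trophoblast markers 2 were tested, Tfap2c and Pdgfra. Pdgfra, also a mesenchymal and glial gene, rose (log2 fold change 0.85, adjusted p = 0.0141 in limma). Its call was lost without the minimum and without untreated replicate 1 or either Dox replicate (adjusted p = 0.0688 to 0.0835). The summed level was 14.8 FPKM in both untreated libraries and 9.02 to 9.39 FPKM with Dox, of which Tfap2c made up most untreated. Without Tfap2c the sum was higher with Dox, at 6.78 and 5.84 FPKM against 2.74 and 2.67 FPKM untreated. Hand1, a trophoblast and mesoderm gene, was at 0.28 and 0.14 FPKM untreated and at 1.6 and 0.95 FPKM with Dox. Gata3, a trophoblast gene, was at 0.21 and 0.18 FPKM untreated and at 0.86 and 0.97 FPKM with Dox. Eomes, of the same list, went the other way, at 0.77 and 0.58 FPKM untreated and at 0.14 and 0.11 FPKM with Dox. Hand1, Gata3 and Eomes were not tested and are named after their values were seen. Gata4, Gata6, Sox17 and Cdx2 did not exceed 0.39 FPKM. Exons of Krt8, Dnd1 and Pdgfra overlap opposite-strand genes. The part of these cells in the members' values was not tested.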

How the data were processed

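The authors deposited 1 table of FPKM values per gene and library, rounded to 2 decimals and not pooled. The submitters' processing notes name STAR, Cuffdiff and mm10, with no versions. The annotation release and strand setting are not given in the sources used here. FPKM is no count, so values were tested as log2(FPKM + 1) with limma 3.58.1 in R 4.3.3 (eBayes with an intensity trend, two-sided, no covariate, all 4 libraries), for the 13931 genes whose mean reached 1 FPKM. Fold changes on this scale understate changes of low genes. Benjamini-Hochberg adjustment was over all tested genes, with a threshold of 0.05.

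Groups came from the treatment label. The limma fit was tested on simulated data. Depth was fitted from the steps of low values, of which 79.8% to 82.5% were whole fragments within rounding, against 12.7% to 14.6% at wrong depths. Positions and transcripts came from GENCODE M21 (GRCm38), promoters from RefSeq.

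The members and lists were chosen with earlier results of these data known. Named were Mettl3, the members, of each other list up to 4 called genes of largest fold change, the 3 most abundant genes of the 4 pluripotency-related lists and the most abundant marker of each marker list, and a panel of eye-field genes. Cdh1 and Epcam, Sox2, Otx2 and Tfap2c each stand in 2 lists. Some genes that the rule names are not reported here, but they are counted. Alternatives were other pseudocounts (0.1, 5), no minimum or one of 5 FPKM, TPM rescaling, median centring, quantile normalization, no trend, a replicate block, robust estimation and each library left out.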

Additional observations from a re-analysis of the deposited data

How the results depend on the processing

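No fit called a member higher (0 in all 14 alternatives, limma). The count of members called lower, 1, was 0 with no minimum on level (Klf4: -0.71, adjusted p = 0.101), 0 with a minimum of 5 FPKM, which leaves Klf4 untested, and 0 in each fit that left out a library (Klf4: -0.79 to -0.62). A lone library is assumed there to vary like the other group, and fits with 3 libraries called fewer genes of any kind: 262 to 320 of all genes higher and 331 to 377 lower, against 619 and 678. With no minimum these counts were 336 and 409, and with 5 FPKM 408 and 413. With the replicate block they were 532 and 602, with Klf4 at -0.71 (adjusted p = 0.0466) and no member's call changed. Deviations of same-numbered libraries from their group means did not run together (r = -0.0435 across 13931 genes). No shared shift was thus seen, but with so few libraries this cannot decide whether same-numbered libraries were prepared together.

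Values near 0 changed sign, none of them called. Pou5f1 was 0.0091 with TPM and -0.27 to 0.25 without a library. Zfp42 was -1e-04 with a pseudocount of 0.1, -5e-04 with median centring and -0.20 to 0.20 without a library, and Esrrb was -0.28 to 0.22 without a library. Jak1 was -0.0027 with quantile normalization and -0.0587 to 0.0767 without a library, Klf11 -0.0725 to 0.0788, Krt8 -0.0218 to 0.0913 and Pax6 -0.0121 to 0.0912. The cause was not tested. About 51 to 87 fragments per library stood behind Klf4 with Dox and behind Klf5 and Dppa4. How depth limits detection of small differences was not tested.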
